A study of Mus musculus with 10 samples.

Results

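The subject is the set of genes encoding subunits of the mitochondrial respiratory chain and ATP synthase in mouse kidney, described after ischaemia-reperfusion injury (IRI) and after sham surgery. Members were chosen by symbol: names starting with Nduf, Uqcr, Atp5, mt-Nd, mt-Co, mt-Atp or Cox4 to Cox8, together with Sdha, Sdhb, Sdhc, Sdhd, Cyc1 and mt-Cytb, leaving out 9 genes with pseudogene names. This gave 112 of the 55359 genes in the table. They were 85 nuclear genes for subunits, the 13 protein-coding genes of mitochondrial DNA, 9 assembly or coupling factors that share the name stems, 4 genes annotated as pseudogenes without a pseudogene name (Cox6c2, Ndufa11b, Ndufb4c and Ndufs6b) and a second row for Atp5o. The nuclear subunits comprised 36 of complex I, 4 of complex II, 9 of complex III, 20 of complex IV and 16 of complex V, with Ndufa4 and Ndufa4l2 placed in complex IV.

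Kidneys of male mice were profiled by poly(A)-selected, paired-end RNA sequencing in 10 libraries. The 5 IRI libraries came from kidneys exposed to ischaemia for 30 min and then reperfused for 24 h, and the 5 sham libraries came from mice given sham surgery. The sources used here do not give the strain, age or diet of the mice or the interval after sham surgery. No label states that each library came from a separate mouse, and a p-value here reflects only library-to-library spread, which may be technical.

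Library totals ranged from 13147899 to 18603272 counts. Mitochondrial ribosomal RNA took 2.31% of the counts in IRI replicate 1 and 0.214% to 0.450% in the other 9 libraries, so results are also given without that library. Kidney tubule markers were abundant in the sham libraries, with a summed level of 2048 to 2853 FPKM (fragments scaled by exon length and by library total) over 10 genes of the S1 and S2 proximal tubule. The same sum was 1060 FPKM in IRI replicate 1 and 177 to 410 FPKM in the other IRI libraries. In whole kidney, fewer cells of a type and less RNA per cell cannot be told apart.

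The respiratory chain moves electrons from NADH and succinate through complexes I, II, III and IV to oxygen, and complexes I, III and IV pump protons across the inner mitochondrial membrane. Complex V, the ATP synthase, uses the resulting gradient to make ATP. Complexes I, III, IV and V are built from subunits of both genomes, whereas complex II is entirely nuclear encoded, and proximal tubule cells of the kidney rely heavily on this pathway to power solute transport.

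Promoters of these genes are textbook targets of the factors NRF1, GABP, YY1 and the oestrogen-related receptors, so the sequences from 250 bases before to 50 after the start of each gene were searched (RefSeq, GRCm38.p6, both strands). Entries were found for 67 of the 85 nuclear subunits, with 72 promoters. The 3 printed here were picked after values were seen, to show the range: Ndufs6 carried the NRF1 and YY1 motifs, Sdhd carried the NRF1, ETS and oestrogen-related receptor motifs, and Cox7a2l, the called subunit of smallest fold change, carried none of the motifs searched. The Ndufs6 promoter is chr13:73328433-73328732 on the minus strand, the Sdhd promoter chr9:50603800-50604099 on the minus strand and the Cox7a2l promoter chr17:83514284-83514583 on the minus strand. Each is written in the direction of the gene, and capitals mark motif matches.
Ndufs6: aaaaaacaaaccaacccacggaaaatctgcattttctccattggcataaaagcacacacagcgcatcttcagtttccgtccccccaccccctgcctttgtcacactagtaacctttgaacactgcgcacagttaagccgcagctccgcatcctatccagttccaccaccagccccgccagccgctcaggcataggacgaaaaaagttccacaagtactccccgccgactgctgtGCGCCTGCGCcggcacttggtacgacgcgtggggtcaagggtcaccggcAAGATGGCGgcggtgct
Sdhd: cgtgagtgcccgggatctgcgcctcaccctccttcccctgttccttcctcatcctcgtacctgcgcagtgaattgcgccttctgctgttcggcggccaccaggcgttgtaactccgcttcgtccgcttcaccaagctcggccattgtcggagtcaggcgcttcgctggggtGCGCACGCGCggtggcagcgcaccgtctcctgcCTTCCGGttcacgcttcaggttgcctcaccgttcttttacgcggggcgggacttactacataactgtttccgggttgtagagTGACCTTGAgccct
Cox7a2l: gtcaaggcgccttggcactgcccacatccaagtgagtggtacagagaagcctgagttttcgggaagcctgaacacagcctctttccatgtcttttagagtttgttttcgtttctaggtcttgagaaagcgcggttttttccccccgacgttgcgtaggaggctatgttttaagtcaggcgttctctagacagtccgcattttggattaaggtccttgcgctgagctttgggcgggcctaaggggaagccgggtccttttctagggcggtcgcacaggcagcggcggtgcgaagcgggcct

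The NRF1 motif (GCGCA, any base, then GCGC) was present in 25.0% of the 72 subunit promoters, in 9.56% of the 12232 promoters of tested genes and in 4.60% of all 32851 promoters of the same length. The YY1 motif AANATGGCG was present in 13.9%, 4.95% and 2.38% of the same sets. The ETS motif CCGGAAG, which GABP binds, was present in 22.2% of subunit promoters against 17.1% of promoters of tested genes and 8.86% of all. The oestrogen-related receptor motif TCAAGGTCA was found in 2 subunit promoters, those of Sdhd and Atp5g3 (2.78%, against 0.270% and 0.423%), and TATAAA in 11.1% (against 7.41% and 13.6%). Matches of different motifs overlapped in 0 of the 72 promoters. Among subunit genes with a tested fold change, the median log2 fold change (IRI against sham) was -0.89 for 17 with an NRF1 match and -0.89 for 48 without. It was -0.88 for 16 with the ETS match and -0.90 for 49 without, and -1.0 for 10 with the YY1 match and -0.88 for 55 without. It was -0.58 for 2 with the oestrogen-related receptor match and -0.90 for 63 without, and -0.74 for 5 with TATAAA and -0.90 for 60 without. These differences were not tested. A match describes these letters and not a bound site.

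Transcripts of the nuclear subunits were lower after IRI across all 5 complexes. Of 85 nuclear subunits, 82 passed the filter of at least 1 FPKM in 5 or more libraries, and 78 of these were lower, 0 were higher and 4 were not called (edgeR quasi-likelihood test, Benjamini-Hochberg adjusted p under 0.05 over 13324 genes). Over all genes tested, 32.4% were lower and 34.5% were higher by the same rule. The median log2 fold change was -0.88 for the 82 subunits and 0.05 for all genes. Between the groups, FPKM did not overlap and was lower after IRI for 53 of the 82, against 18.6% of all genes (36.7% of all genes did not overlap and were higher). A fall of at least 2-fold that passed the test was found for 24 of the 82, against 15.0% of all genes.

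The fold changes were close to each other, with 76 of the 82 within 1.5 times of the median fold. The 4 subunits not called were Ndufa12 of complex I, Cox4i2 and Cox6b2 of complex IV and Atp5g2 of complex V. The 3 nuclear subunits below the filter, Cox7b2, Cox8b and Cox8c, were at 0 to 0.85 FPKM in every library. Without IRI replicate 1, 78 subunits were again lower and 0 higher, with a median of -0.91 (32.4% of all genes were then lower and 34.0% higher).

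The scaling of libraries shifted these values. TMM factors, used for the fold changes above, put the median of all genes at 0.05, and scaling by library totals, on which FPKM rests, put it at 0.30. With library totals, 74 nuclear subunits were lower, all of them among the 78, and the median was -0.63. Cox6b2 was then higher, with a log2 fold change of 0.73 (edgeR adjusted p = 0.021), and Ndufa7, Cox7c, Cox7a2l and Atp5l were no longer called (23.5% of all genes were lower and 47.2% higher).

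**Figure D1:**
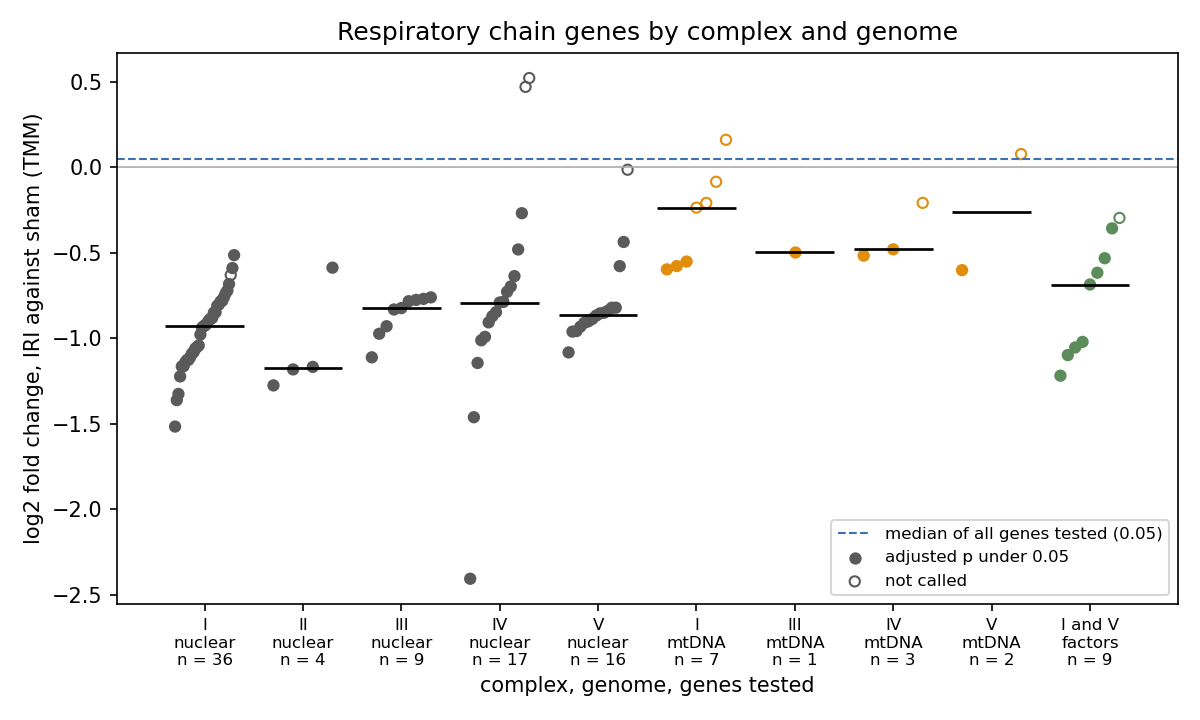
Log2 fold change (IRI against sham, TMM scaling) of each tested respiratory chain gene, grouped by complex and genome. Filled points passed an adjusted p under 0.05, open points did not, horizontal bars are medians and the dashed line is the median of all genes (0.05). Nuclear subunits of the 5 complexes centre between -0.79 and -1.17, and the mitochondrially encoded genes lie nearer to the dashed line.

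Complex I, the NADH dehydrogenase, had the most members, and 35 of its 36 nuclear subunits were lower (median log2 fold change -0.93). All 7 nuclear core subunits, which hold the flavin, the iron-sulphur clusters and much of the quinone site, were lower (median -1.04), as were 28 of the 29 supernumerary subunits (median -0.92). The groups did not overlap in FPKM for 26 of the 36, against 18.6% of all genes that were lower without overlap. The same share applies to the counts without overlap given for the other complexes.

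Ndufv3 (chr17:31739089-31750305, plus strand, GRCm39), a small accessory subunit of the NADH-binding module, fell most in complex I. Its levels were 57.3, 55.4, 44.4, 57.9 and 74.1 FPKM in sham replicates 1 to 5 and 24.1, 29.1, 24.0, 21.1 and 21.9 FPKM in IRI replicates 1 to 5. The lowest sham library was above the highest IRI library, and the log2 fold change was -1.52 ± 0.14 (SE, edgeR adjusted p = 2.1e-06). Ndufa6 and Ndufb4, accessory subunits of the complex, followed at -1.36 ± 0.15 and -1.33 ± 0.19 (SE).

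Among core subunits, Ndufs1, which carries iron-sulphur clusters of the electron input module, was at 34.2, 34.5, 35.0, 32.2 and 26.9 FPKM in sham and 20.7, 14.3, 18.8, 16.3 and 15.9 FPKM in IRI libraries. Every IRI library was below every sham library, and the log2 fold change was -1.16 ± 0.13 (SE, edgeR adjusted p = 1.1e-05). Ndufs8, which carries clusters close to the quinone site, was at 121, 114, 110, 135 and 160 FPKM in sham and 64.7, 65.7, 73.5, 69.2 and 66.8 FPKM in IRI libraries, a log2 fold change of -1.16 ± 0.11 (SE, edgeR adjusted p = 2.0e-06). Its IRI values lay close together and all below the sham values. Ndufs7 (-1.05 ± 0.14), Ndufv1, which binds NADH and flavin (-1.04 ± 0.12), Ndufv2 (-0.89 ± 0.12) and Ndufs3 (-0.72 ± 0.10) were also lower, as log2 fold changes with SE.

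Ndufa12, an accessory subunit, was the only complex I member not called. It was at 27.6, 64.1, 21.9, 33.7 and 64.6 FPKM in sham and 19.8, 23.2, 64.3, 22.2 and 34.8 FPKM in IRI libraries. Both groups held libraries near the bottom and near the top of this range, and the log2 fold change was -0.63 ± 0.40 (SE, edgeR adjusted p = 0.19). Ndufa7 had the smallest called change of the complex, at -0.51 ± 0.13 (SE).

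Complex II, succinate dehydrogenase, is shared by the chain and the tricarboxylic acid cycle, and all 4 of its subunits were lower without overlap between groups (median log2 fold change -1.17). Sdha, the flavoprotein that oxidises succinate, was at 192, 183, 183, 178 and 146 FPKM in sham and 110, 85.2, 99.1, 80.6 and 89.3 FPKM in IRI libraries. Sdhb, the iron-sulphur subunit, was at 133, 133, 120, 161 and 162 FPKM in sham and 77.3, 72.8, 73.5, 64.2 and 59.5 FPKM in IRI libraries. For both genes the lowest sham library stood above the highest IRI library. The log2 fold changes were -1.17 ± 0.13 (SE, edgeR adjusted p = 1.0e-05) for Sdha and -1.28 ± 0.13 (SE, edgeR adjusted p = 3.8e-06) for Sdhb.

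The 2 membrane anchors of complex II differed in the size of their change. Sdhc was at 114, 113, 99.2, 118 and 123 FPKM in sham and 54.6, 63.1, 70.5, 56.1 and 53.4 FPKM in IRI libraries, a log2 fold change of -1.18 ± 0.11 (SE, edgeR adjusted p = 1.7e-06). Sdhd, whose promoter is printed above, was at 227, 214, 209, 242 and 206 FPKM in sham and 158, 176, 202, 171 and 163 FPKM in IRI libraries. The highest IRI value of Sdhd lay just under the lowest sham value, and its log2 fold change was -0.59 ± 0.09 (SE, edgeR adjusted p = 0.00014). The difference between the anchors was not tested.

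All 9 nuclear subunits of complex III, the cytochrome bc1 complex, were lower, within a narrow range of log2 fold changes from -1.11 to -0.76. The groups did not overlap for 8 of the 9. Uqcrfs1, the Rieske iron-sulphur protein, was at 302, 347, 290, 350 and 349 FPKM in sham and 198, 225, 212, 192 and 165 FPKM in IRI libraries (log2 fold change -0.97 ± 0.12, SE, edgeR adjusted p = 1.5e-05). Its groups were separated by a wide gap. Cyc1, the cytochrome c1 haem protein that hands electrons to cytochrome c, was at 146, 149, 138, 176 and 174 FPKM in sham and 106, 121, 122, 103 and 98.2 FPKM in IRI libraries, with no overlap (-0.76 ± 0.11, SE, edgeR adjusted p = 7.3e-05). Uqcr11, a small accessory subunit, had the largest change of the complex (-1.11 ± 0.16, SE), and the core proteins Uqcrc2 and Uqcrc1 were at -0.93 ± 0.11 and -0.82 ± 0.10 (SE).

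Complex IV, cytochrome c oxidase, had the widest range of log2 fold changes, from -2.41 to 0.52. Of its 17 tested nuclear subunits 15 were lower (median -0.79). The groups did not overlap for 6 of the 17, against 18.6% of all genes that were lower without overlap. The lower end of the range is Cox6a2, which passed the filter through the sham libraries alone. Cox8a, a small structural subunit, was at 727, 797, 800, 944 and 1068 FPKM in sham and 542, 638, 505, 466 and 436 FPKM in IRI libraries (log2 fold change -0.99 ± 0.15, SE, edgeR adjusted p = 6.9e-05), with every IRI library below every sham library. Cox4i1, the ubiquitous form of the subunit COX4, was at 559, 523, 479, 632 and 692 FPKM in sham and 422, 540, 440, 431 and 374 FPKM in IRI libraries. IRI replicate 2 reached into the sham range, and the log2 fold change was -0.64 ± 0.14 (SE, edgeR adjusted p = 0.0014). The subunits Cox5a and Cox5b, which belong to the same nuclear shell around the catalytic core, were at -0.73 ± 0.15 and -0.79 ± 0.15 (SE), and Ndufa4 was at -1.01 ± 0.15 (SE).

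Cox7a2l, known as a supercomplex assembly factor that helps join complex III to complex IV, was the called subunit of smallest fold change. Its levels were 88.7, 78.6, 78.7, 98.5 and 87.7 FPKM in sham and 74.8, 94.2, 84.2, 92.0 and 82.6 FPKM in IRI libraries, which overlapped almost fully. The log2 fold change was -0.27 ± 0.09 (SE, edgeR adjusted p = 0.017) with TMM factors and -0.01 with library totals (edgeR adjusted p = 0.90). The call was also lost when sham replicate 1 (-0.24) or sham replicate 4 (-0.20) was left out.

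Several complex IV subunits exist in paired forms that are known for different tissues, and their ratio within a library does not depend on the scaling. Of 10 pairs listed, 8 had at least 3 counts of both genes in every library and were compared with an exact permutation test (two-sided, over all assignments of 5 of the 10 libraries, smallest possible p 0.00794), with adjustment over the 8 pairs. The ratio of Cox7a2l to Cox7a2, the widely expressed form of COX7A, rose in log2 terms by 0.58, with no overlap between the groups (exact permutation, adjusted p = 0.021). The log2 ratios were -1.45, -1.82, -1.45, -1.53 and -2.02 in sham and -1.16, -1.29, -1.21, -0.88 and -0.84 in IRI libraries. A ratio rises when its second gene falls, even if the first is unchanged. With TMM factors Cox7a2 was called lower at a log2 fold change of -0.85 and Cox7a2l at -0.27. This ratio therefore rose without a rise of Cox7a2l.

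The muscle forms Cox6a2 and Cox7a1 were lower after IRI. Cox6a2, the heart and skeletal muscle form of COX6A, was at only 2.28, 3.00, 1.88, 3.23 and 3.46 FPKM in sham and 0.45, 0.34, 0.59, 0.78 and 0.87 FPKM in IRI libraries. All IRI libraries were below all sham libraries, and the log2 fold change was -2.41 ± 0.31 (SE, edgeR adjusted p = 2.3e-05). Cox6a2 passed the filter through the sham libraries alone, and a low gene admitted in this way tends to be lower in the other group. The IRI libraries held only 3 to 10 counts of Cox6a2, so its fold change and ratio are weak evidence. The log2 ratio of Cox6a2 to Cox6a1, the form of other tissues, fell by 1.70 (exact permutation, adjusted p = 0.021). Cox7a1, the muscle form of COX7A, was at 15.6, 16.8, 17.6, 19.8 and 29.3 FPKM in sham and 9.88, 15.8, 3.89, 9.10 and 4.33 FPKM in IRI libraries, where IRI replicate 2 overlapped the sham range.

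The log2 fold change of Cox7a1 was -1.46 ± 0.36 (SE, edgeR adjusted p = 0.0034), and the fall of its log2 ratio to Cox7a2 by 0.77 did not pass the adjusted test (exact permutation, adjusted p = 0.051). Without IRI replicate 2 that ratio fell by 0.95 and passed (exact permutation, adjusted p = 0.032). The summed level of 8 skeletal and cardiac muscle markers was 0.090 to 0.28 FPKM in sham and 0.17 to 0.47 FPKM in IRI libraries, with 2 of the 8 at 0 throughout. Brown fat is another tissue that expresses muscle forms, and 5 fat genes were summed: Ucp1, Cidea, Adipoq, Plin1 and Cfd. Adipoq, Plin1 and Cfd are expressed in fat in general, so the sum is not specific to brown fat. It was 3.53 and 10.6 FPKM in sham replicates 1 and 3 and 0.080 to 0.67 FPKM in the other 8 libraries. Cox6a2 was at 2.28 and 1.88 FPKM in those 2 sham libraries and at 3.00, 3.23 and 3.46 FPKM in sham replicates 2, 4 and 5. Cox7a1 was at 15.6 and 17.6 FPKM in them and at 16.8, 19.8 and 29.3 FPKM in sham replicates 2, 4 and 5. The source of these transcripts was not tested.

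Cox6b2, best known from testis, was at 7.05, 5.19, 4.29, 3.49 and 7.07 FPKM in sham and 5.88, 7.41, 11.8, 12.4 and 7.45 FPKM in IRI libraries. The groups overlapped through IRI replicate 1, and the log2 fold change of 0.47 ± 0.25 (SE, edgeR adjusted p = 0.11) was not called with TMM factors. Its log2 ratio to Cox6b1, the general form, rose by 1.38, from -6.81 ± 0.45 to -5.43 ± 0.48 (SD, n = 5 each, exact permutation, adjusted p = 0.021). Cox6b1 itself was called lower, at a log2 fold change of -0.91 with TMM factors. The rise of the ratio holds that fall as well as the uncalled change of Cox6b2. Cox4i2, a form of COX4 known from lung and low oxygen, was at 0.61 to 1.25 FPKM in sham and 0.90 to 2.41 FPKM in IRI libraries, close to the filter.

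The log2 ratio of Cox4i2 to Cox4i1 rose by 1.12 (exact permutation, adjusted p = 0.032). This call was lost when any 1 of sham replicates 1, 2, 4 or 5, or IRI replicates 1, 2, 3 or 4, was left out. The adjusted p of the exact permutation test was then 0.051 to 0.063, with values from 0.89 to 1.18. With a library left out the smallest possible p is above 0.00794, so a lost call does not single out that library. Cox4i1 itself was called lower, and Cox4i2 was not called. Ndufa4l2, a paralogue of Ndufa4 induced by low oxygen in other settings, was lower (4.24, 3.73, 3.06, 4.36 and 4.51 FPKM in sham, 1.57, 1.18, 3.38, 2.46 and 2.06 FPKM in IRI libraries, log2 fold change -1.14 ± 0.26, SE, edgeR adjusted p = 0.0018). Only IRI replicate 3 reached the sham range. Its log2 ratio to Ndufa4 differed by -0.21 between groups, which did not pass the test (exact permutation, adjusted p = 0.63).

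**Figure D2:**
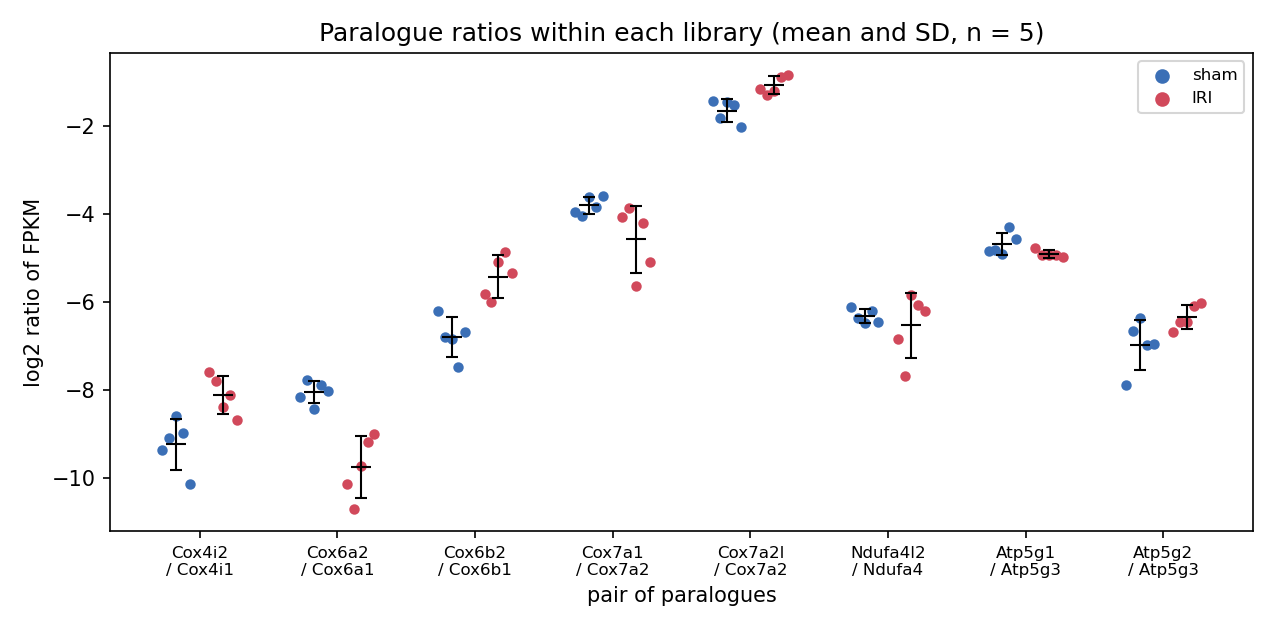
Log2 ratio of the FPKM of paired paralogues within each library, for 5 sham and 5 IRI libraries, with the mean and SD of each group. The groups are separate for Cox6a2 to Cox6a1, Cox6b2 to Cox6b1 and Cox7a2l to Cox7a2, and overlap for the other 5 pairs.

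Complex V, the ATP synthase, had 15 of 16 nuclear subunits lower (median log2 fold change -0.86), with no overlap for 9. Atp5b, the catalytic beta subunit of the F1 head, was at 626, 627, 600, 686 and 564 FPKM in sham and 486, 403, 394, 359 and 392 FPKM in IRI libraries. Atp5c1, the gamma subunit that forms the central stalk, was at 269, 251, 259, 265 and 277 FPKM in sham and 170, 158, 172, 158 and 147 FPKM in IRI libraries. Both genes separated the groups, and Atp5c1 varied little within either. The log2 fold changes were -0.85 ± 0.14 (SE, edgeR adjusted p = 0.00013) for Atp5b and -0.96 ± 0.10 (SE, edgeR adjusted p = 3.6e-06) for Atp5c1.

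The other named parts of the enzyme changed by similar amounts, as log2 fold changes with SE: the alpha subunit Atp5a1 by -0.85 ± 0.12, the delta subunit Atp5d by -0.84 ± 0.13, the epsilon subunit Atp5e by -0.87 ± 0.18, the stalk subunits Atp5o by -0.91 ± 0.13 and Atp5f1 by -0.90 ± 0.11, and the membrane subunit Atp5j2 by -1.08 ± 0.13. Subunit c, which forms the proton-driven ring, is encoded by 3 genes that give the same mature protein. Atp5g3, the most abundant of the 3 per length, was at 326 ± 43.2 FPKM in sham and 259 ± 39.9 FPKM in IRI libraries (SD, n = 5 each), with a log2 fold change of -0.58 ± 0.15 (SE, edgeR adjusted p = 0.0038). Atp5g1, at 12.9 ± 3.50 and 8.65 ± 1.54 FPKM (SD, n = 5 each), was at -0.82 ± 0.20 (SE). Atp5g2 was at 1.37 to 3.24 FPKM in sham and 2.64 to 3.61 FPKM in IRI libraries and was not called (-0.01 ± 0.22, SE, edgeR adjusted p = 0.96).

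Neither log2 ratio within the subunit c genes passed the adjusted test. The ratio of Atp5g1 to Atp5g3 differed by -0.22 (exact permutation, adjusted p = 0.10) and that of Atp5g2 to Atp5g3 by 0.63 (exact permutation, adjusted p = 0.074). Without IRI replicate 1, the ratio of Atp5g1 to Atp5g3 differed by -0.25 and passed (exact permutation, adjusted p = 0.032). Atp5l, a membrane subunit, was at -0.44 ± 0.10 (SE). It is among 7 nuclear subunit genes, with Atp5f1, Atp5h, Atp5o, Cox5b, Ndufs3 and Uqcrb, that have at least 50% of a transcript matched at 97% identity or more by other genes, and their values are uncertain to the extent that reads were shared. Atpif1, the inhibitor that binds the ATP synthase when the gradient fails, is not taken by the naming rule and was at 183, 191, 138, 188 and 239 FPKM in sham and 100, 108, 121, 101 and 94.1 FPKM in IRI libraries (log2 fold change -1.09 ± 0.14, SE, edgeR adjusted p = 2.3e-05), with no overlap.

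Among the genes of mitochondrial DNA, fewer calls were made and the median fold change was nearer to 0 than among nuclear subunits, a difference that was not tested. With TMM factors, 7 of the 13 were lower (53.8%, against 32.4% of all genes), 0 were higher and 6 did not pass the test. The lower genes were mt-Nd2, mt-Nd3, mt-Nd4, mt-Cytb, mt-Co2, mt-Co3 and mt-Atp6, and the median log2 fold change of the 13 was -0.48. Of the 7 genes above 1000 FPKM, 3 were lower (median -0.24), and of the 6 below it, 4 were lower (median -0.50). The 6 include genes whose reads cannot be told from those of nuclear copies, as described below. With library totals 1 gene, mt-Nd4, was lower (7.69%, against 23.5% of all genes) and the median was -0.23, so most of these calls rested on the scaling. The median was then 0.01 for the 7 genes above 1000 FPKM and -0.24 for the 6 below it. The share of the 13 genes in all counts was 10.0%, 11.5%, 11.0%, 10.1% and 10.4% in sham and 10.3%, 10.1%, 9.90%, 10.1% and 9.98% in IRI libraries, which overlapped.

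mt-Nd4, a proton-pumping subunit of complex I, was at 6939, 7924, 6569, 7091 and 8056 FPKM in sham and 5936, 6395, 5405, 5791 and 5632 FPKM in IRI libraries. The groups did not overlap, and the log2 fold change was -0.58 ± 0.13 with TMM factors (SE, edgeR adjusted p = 0.0015) and -0.33 with library totals (edgeR adjusted p = 0.019). mt-Cytb, cytochrome b and the only mitochondrially encoded subunit of complex III, was at 18327, 21242, 18853, 18811 and 20521 FPKM in sham and 17443, 17690, 15729, 15873 and 15710 FPKM in IRI libraries. Its groups did not overlap either, with -0.49 ± 0.13 (SE, edgeR adjusted p = 0.0046) and -0.25 with library totals (edgeR adjusted p = 0.062).

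mt-Nd2, a membrane subunit of complex I, was at 9788, 11386, 11124, 9717 and 11018 FPKM in sham and 11401, 7681, 6996, 8121 and 8544 FPKM in IRI libraries. IRI replicate 1, the library with high mitochondrial ribosomal RNA, was the highest of all 10, and the other 4 IRI libraries lay below every sham library. The log2 fold change was -0.55 ± 0.17 (SE, edgeR adjusted p = 0.011) with that library and -0.72 without it. mt-Co1, the catalytic subunit of cytochrome c oxidase, was at 22680, 25605, 25860, 23058 and 19845 FPKM in sham and 22787, 23040, 25310, 24850 and 24676 FPKM in IRI libraries, fully overlapping (-0.21 ± 0.13, SE, edgeR adjusted p = 0.17). mt-Nd1 (-0.21 ± 0.12), mt-Nd5 (-0.08 ± 0.16) and mt-Nd6, which is read from the opposite strand (-0.24 ± 0.12), were not called either (log2 fold changes with SE).

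The mitochondrial genes fell into a high and a low range of level per length. mt-Nd1, mt-Nd2, mt-Co1, mt-Nd4, mt-Nd5, mt-Nd6 and mt-Cytb were at 3339 to 25860 FPKM, whereas mt-Co2, mt-Atp8, mt-Atp6, mt-Co3, mt-Nd3 and mt-Nd4l, which follow each other on the genome from MT:7013 to MT:10173, were at 2.04 to 223 FPKM. Of these 6, all but mt-Atp8 were matched over at least 99.0% of their length, at 99.7% identity or more, by unprocessed pseudogenes that lie in the same order on chromosome 1. Copies were not limited to that run: mt-Co1 was matched over 100% of its length by Gm13340 at 97.6% identity, and mt-Nd4 over 63.6% by Gm28439 at 100% identity. Gm28439 was at 9.30 to 16.2 FPKM over all 10 libraries, against 5405 FPKM or more for mt-Nd4. The sources used here do not say how reads mapping to more than 1 place were counted, and reads of these genes and their copies cannot be told apart where the sequences match. To show how close the copies are, the first 80 bases of mt-Nd3 (MT:9459-9806, plus strand) and of Gm28438 (chr1:24651856-24652200, minus strand, both GRCm39) are given from the GENCODE M21 transcripts, with the 1 mismatch over 345 aligned bases in capitals.
mt-Nd3: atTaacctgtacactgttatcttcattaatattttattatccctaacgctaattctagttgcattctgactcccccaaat
Gm28438: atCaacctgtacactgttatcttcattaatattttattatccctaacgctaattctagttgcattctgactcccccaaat

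The copies were counted at similar levels to the genes themselves. mt-Nd3 was at 15.5, 18.4, 15.6, 21.8 and 19.4 FPKM in sham and 13.2, 16.4, 12.6, 14.0 and 15.2 FPKM in IRI libraries, and Gm28438 was at 9.21 to 16.6 FPKM over all 10. mt-Co2, the subunit of complex IV that receives electrons from cytochrome c, was at 166, 183, 155, 184 and 223 FPKM in sham and 149, 192, 148, 155 and 133 FPKM in IRI libraries. Its copy Gm28661, with 0 mismatches over 681 bases, was at 107 to 195 FPKM over all 10 libraries. Both genes had overlapping groups, and their log2 fold changes were -0.60 ± 0.16 for mt-Nd3 (SE, edgeR adjusted p = 0.0050) and -0.48 ± 0.12 for mt-Co2 (SE, edgeR adjusted p = 0.0044), neither of which was called with library totals.

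mt-Atp6, a membrane subunit of complex V, was at 40.3, 44.9, 40.3, 47.7 and 81.4 FPKM in sham and 44.8, 49.2, 36.7, 38.0 and 30.4 FPKM in IRI libraries. Sham replicate 5 stood far above the rest, and the call (-0.60 ± 0.21, SE, edgeR adjusted p = 0.026) was lost without it (-0.36, adjusted p = 0.058) and without IRI replicate 3 (-0.57), 4 (-0.57) or 5 (-0.51). mt-Co3, also of complex IV, was at -0.52 ± 0.11 (SE). mt-Atp8 and mt-Nd4l, with log2 fold changes of 0.08 ± 0.24 and 0.16 ± 0.29 (SE), overlap mt-Atp6 and mt-Nd4 in the deposited coordinates and were not called.

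**Figure D3:**
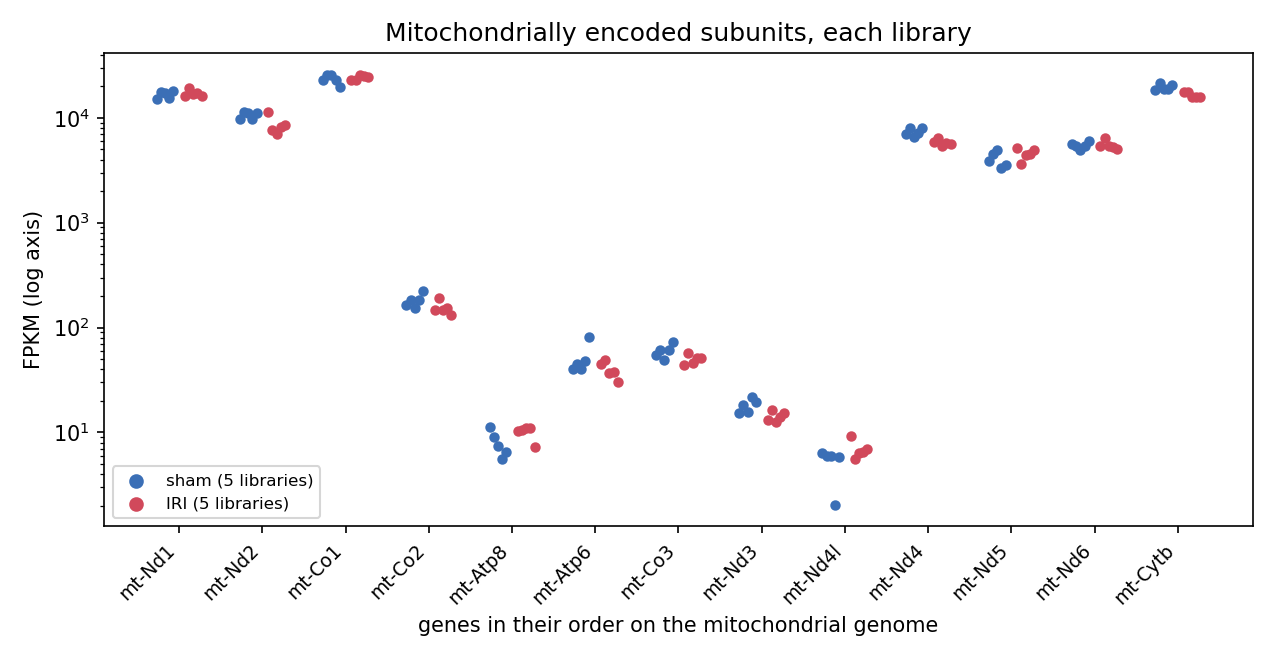
FPKM (log axis) of the 13 mitochondrially encoded subunits in each library, in their order on the mitochondrial genome. The run from mt-Co2 to mt-Nd4l is at 2.04 to 223 FPKM, and all other genes are at 3339 to 25860 FPKM.

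The levels of the genomes were also set against each other within each library. The summed level of the 85 nuclear subunits was 13898, 14250, 12647, 15455 and 17473 FPKM in sham and 9554, 11124, 10079, 9076 and 8156 FPKM in IRI libraries, without overlap. The summed level of the 13 mitochondrial genes was 82664, 93941, 89671, 83220 and 87340 FPKM in sham and 84665, 84523, 80442, 81906 and 80794 FPKM in IRI libraries, with overlap. The ratio of the mitochondrial to the nuclear sum was 6.00 ± 0.855 in sham (5.00 to 7.09) and 8.67 ± 0.910 in IRI libraries (7.60 to 9.91, SD, n = 5 each). The ratio is independent of the scaling, the groups did not overlap, and no test was made of a score over the members.

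By complex, the summed nuclear FPKM was lower by 37.3% for complex I, 39.2% for II, 34.4% for III, 32.9% for IV and 34.0% for V, on the scale of library totals. Sums did not overlap between groups for any of the 5. Neither the order of the complexes by sum nor that by median was tested, and the median log2 fold changes of -0.79 to -1.17 were close to each other.

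**Figure D4:**
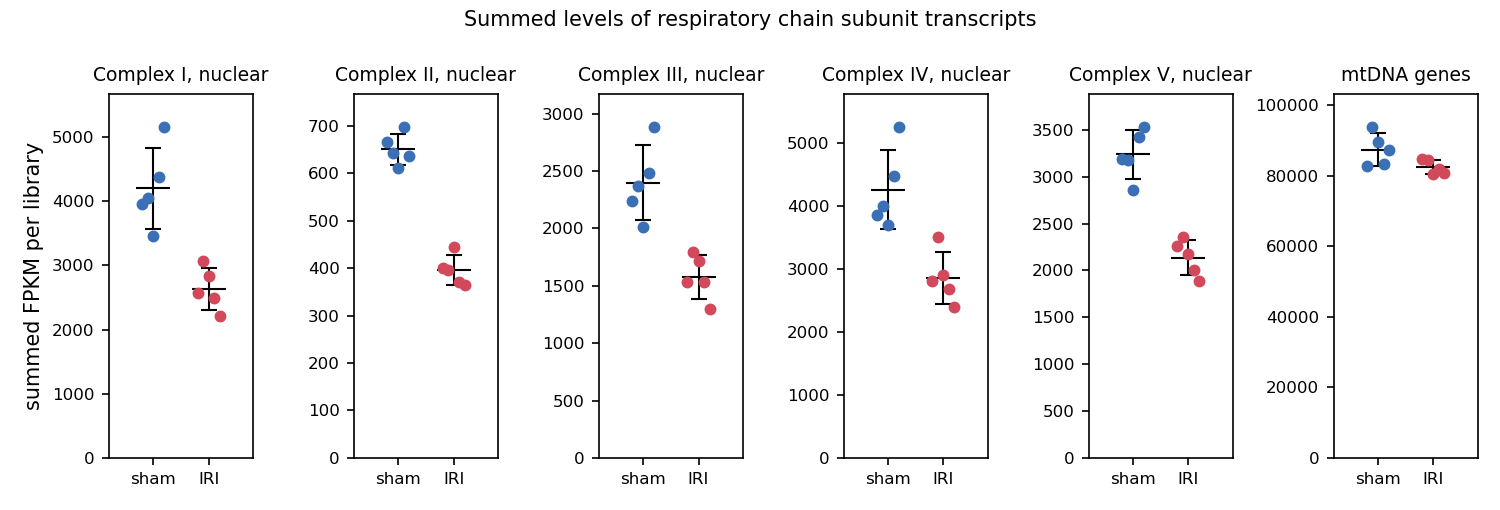
Summed FPKM of nuclear subunits of each complex and of the 13 mitochondrial genes (mtDNA), in 5 sham and 5 IRI libraries, with the mean and SD of each group and axes starting at 0. The nuclear sums separate the groups in every complex, and the mitochondrial sums overlap.

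The assembly and coupling factors that share the name stems were mostly lower. Of the 9, 8 were lower (88.9%, against 32.4% of all genes), 0 were higher (against 34.5%) and Ndufaf5 did not pass. The median log2 fold change of the 9 was -0.69. Ndufaf6, an assembly factor of complex I, was at 13.4, 11.1, 9.08, 14.5 and 15.6 FPKM in sham and 6.17, 7.27, 6.32, 6.22 and 6.64 FPKM in IRI libraries, with no overlap (-1.22 ± 0.15, SE, edgeR adjusted p = 2.2e-05). Ndufaf1 (-1.05 ± 0.10), Ndufaf3 (-1.02 ± 0.12) and Atp5s, the coupling factor B (-1.10 ± 0.14), had the next largest changes (log2 fold changes with SE). Of the 4 annotated pseudogenes, Ndufb4c and Cox6c2 passed the filter and neither was called, Ndufa11b and Ndufs6b were under it, and the second Atp5o row was at 0 in every library.

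Factors of assembly outside the naming rule were lower in most cases, from lists assembled with earlier results of these data known. Over all genes, 32.4% were lower and 34.5% were higher. All 11 other complex I factors were lower (median log2 fold change -0.95), with Acad9, a flavoprotein of the membrane arm assembly complex, at -1.59 ± 0.15, Ecsit of the same complex at -1.25 ± 0.11 and the iron-sulphur carrier Nubpl at -1.18 ± 0.14 (SE). For complex II, 3 of 4 were lower, with Sdhaf4 at -1.44 ± 0.19 and Sdhaf1 at -1.22 ± 0.17 (SE). For complex III, 4 of 6 were lower and 1, Ttc19, was higher. Lyrm7 was at -1.60 ± 0.30 (SE), at a low mean level of under 2 FPKM, and Bcs1l, which inserts the Rieske protein, at -1.47 ± 0.18 (SE).

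For complex IV, 15 of 22 assembly factors were lower (68.2%, against 32.4% of all genes) and 2 were higher (9.09%, against 34.5%). Coa6, a copper delivery factor, was at -1.35 ± 0.15, while Cox18, which inserts a part of mt-Co2 into the membrane, was at 0.43 ± 0.11 and Hccs, which attaches haem to cytochromes c and c1, at 0.40 ± 0.10 (SE). All 5 factors of ATP synthase assembly were lower (median -0.50), with Fmc1 at -1.11 ± 0.19 and Tmem70 at -1.01 ± 0.11 (SE). With library totals, 2 of these 5 were lower (40%, against 23.5% of all genes).

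The mobile carriers and ubiquinone synthesis had 15 of 19 genes lower (78.9%, against 32.4% of all genes) and 3 higher (15.8%, against 34.5%). The remaining gene, Gpd2, was without a call, and the median log2 fold change was -0.80. Coq8a, an atypical kinase of ubiquinone synthesis, was at -2.31 ± 0.33 (SE), and Coq9, a lipid-binding protein of the same pathway, at -1.48 ± 0.11 (SE). Etfa and Etfb, the electron transfer flavoprotein that feeds electrons from fatty acid oxidation, were at -1.50 ± 0.12 and -1.49 ± 0.19 (SE), and Cycs, cytochrome c, at -1.08 ± 0.14 (SE). The 3 higher genes were Coq10b (0.73 ± 0.12), Coq8b (0.37 ± 0.09) and Coq7 (0.29 ± 0.09, SE).

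Genes that copy and transcribe mitochondrial DNA were lower in 11 of 15 cases (73.3%, against 32.4% of all genes) and higher in 2 (13.3%, against 34.5%). The median log2 fold change was -0.50. Tfb1m, which methylates the small ribosomal RNA of the organelle, was at -1.41 ± 0.22 (SE), at a low mean level of under 2 FPKM. Tfam, which packages and activates mitochondrial DNA, was at -0.39 ± 0.09 and the RNA polymerase Polrmt at -0.58 ± 0.10 (SE). Rnaseh1, which removes RNA from RNA-DNA hybrids, was higher at 0.74 ± 0.15 (SE). With library totals 7 of the 15 were lower (46.7%, against 23.5% of all genes). Of 15 genes of mitochondrial RNA processing, 6 were lower (40%, against 32.4% of all genes) and 2 higher (13.3%, against 34.5%), with a median of -0.14. With library totals 4 were lower (26.7%, against 23.5%) and 6 higher (40%, against 47.2%), with a median of 0.12 against 0.30 for all genes. Lrpprc and Slirp, partners that stabilise mitochondrial messenger RNA, were lower at -0.77 ± 0.14 and -0.52 ± 0.12 (SE).

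Of 15 regulators of oxidative genes, 6 were higher (40%, against 34.5% of all genes), 4 lower (26.7%, against 32.4%) and 5 not called with TMM factors. With library totals 8 were higher (53.3%, against 47.2% of all genes) and 2 lower (13.3%, against 23.5%). Esrra and Esrrg, oestrogen-related receptors that activate respiratory genes, were lower with both scalings, at log2 fold changes of -0.94 ± 0.11 and -1.07 ± 0.20 (SE). Ppargc1a, the coactivator PGC-1alpha, was at -0.34 ± 0.11 (SE, edgeR adjusted p = 0.013) with TMM factors and at -0.08 with library totals (edgeR adjusted p = 0.57), and its call was lost without sham replicate 3 (-0.24). Perm1, a regulator downstream of PGC-1, was called at -0.62 ± 0.24 (SE) with TMM factors, was not called with library totals and lost its call without sham replicates 3 or 4 or IRI replicates 2 or 3.

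Pprc1, a relative of PGC-1 that responds to growth signals, had the largest rise, at 1.60 ± 0.17 (SE), followed by Hif1a, the oxygen-sensitive factor, at 0.98 ± 0.21 and Gabpb1, a GABP subunit, at 0.82 ± 0.13 (SE). Nrf1, whose motif was counted above, was at 0.41 ± 0.11, and Epas1 and Gabpb2 were both at 0.31 (SE 0.09 and 0.12). Gabpb2 kept its call in 4 of 10 fits that each left out 1 library. Gabpa (0.05 ± 0.10), Yy1 (0.09 ± 0.08), Esrrb (0.22 ± 0.29), Ppargc1b (-0.45 ± 0.20) and Ppara (-0.63 ± 0.39, SE) were not called, and with library totals Gabpa and Yy1 were higher.

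**Figure D5:**
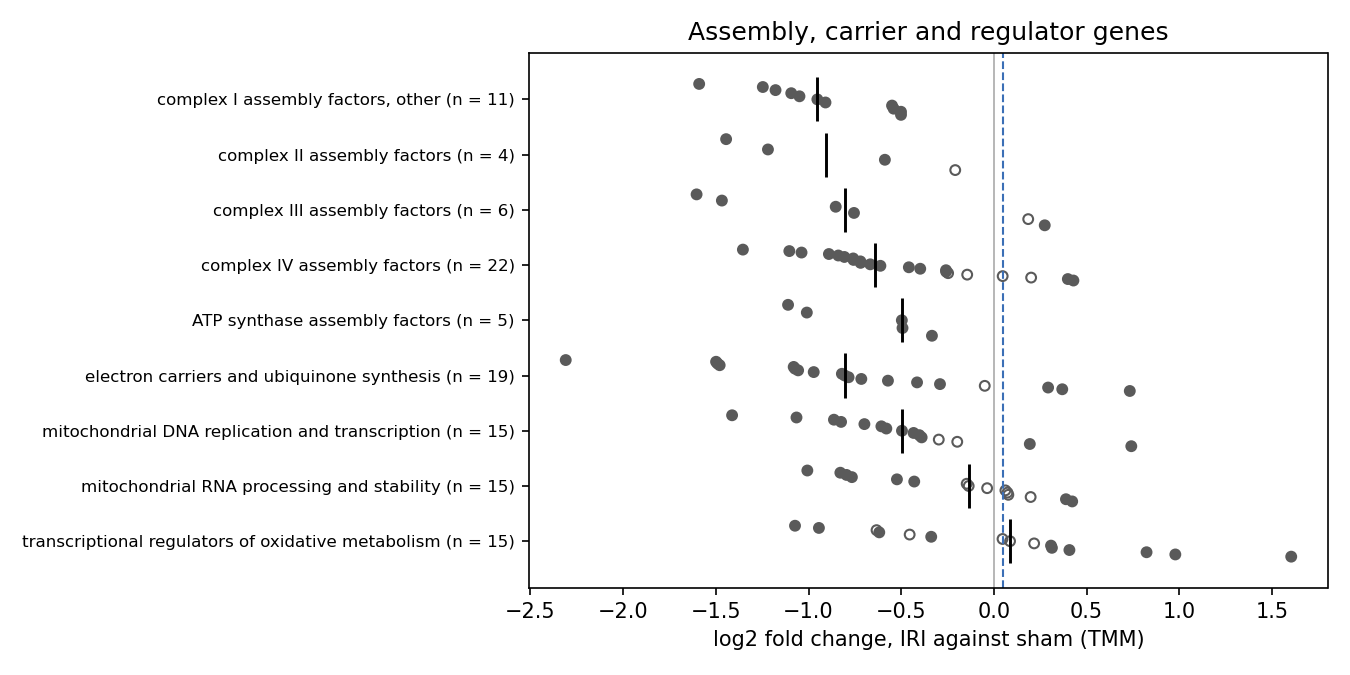
Log2 fold change (IRI against sham, TMM scaling) of genes of assembly, electron carriers, mitochondrial DNA and RNA handling and transcriptional regulation, 1 point per tested gene. Filled points passed an adjusted p under 0.05, bars are list medians and the dashed line is the median of all genes. Medians run from -0.95 for complex I assembly factors to 0.09 for the regulators.

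Cell type markers moved between the same groups. All 10 markers of the S1 and S2 proximal tubule and all 8 of S3 were lower after IRI, and the S3 sum was 1040 to 1548 FPKM in sham and 146 to 216 FPKM in IRI libraries. The sum of 8 tubular injury genes was 396 to 440 FPKM in sham and 18245 to 28896 FPKM in IRI libraries, and all 8 were higher. Thick ascending limb markers, from another segment rich in mitochondria, were at 785 to 1737 FPKM in sham and 1431 to 2623 FPKM in IRI libraries in sum, with 5 of 7 lower and 2 higher. Umod, which encodes uromodulin, made up most of that sum, at 494 to 1205 FPKM in sham and 1330 to 2417 FPKM in IRI libraries, and the other 6 markers together were at 291 to 562 and 101 to 206 FPKM. Neutrophil markers summed to 1.08 to 3.27 FPKM in sham and 23.2 to 107 FPKM in IRI libraries, and 8 lymphocyte markers, none of which passed the filter, summed to 1.88 to 3.63 FPKM in sham and 0.47 to 0.85 FPKM in IRI libraries. Sums of other lists follow as sham, then IRI ranges in FPKM. Podocytes (55.4 to 94.5, 142 to 168) and endothelium (44.8 to 65.8, 70.4 to 106) were higher. So were monocytes and macrophages (36.6 to 57.9, 81.0 to 123) and fibroblasts and smooth muscle (46.1 to 62.6, 68.4 to 243). Intercalated cells were higher (100 to 115, 127 to 198) and the distal tubule lower (187 to 297, 109 to 177). Principal cells overlapped, and single genes did not all follow their sum. IRI replicate 1 had an S1 and S2 sum of 1060 FPKM, against 177 to 410 FPKM in the other IRI libraries. Its S3 sum was 208 FPKM, inside the range of 146 to 216 FPKM of the other IRI libraries. Its nuclear subunit sum was 9554 FPKM, inside their range of 8156 to 11124 FPKM. The part of the marker shifts in the lower subunit transcripts was not tested.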

How the data were processed

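Kidney RNA of 5 sham and 5 IRI libraries was compared. The authors deposited whole-number counts and FPKM per gene in 1 table. The submitters' processing notes name the build GRCm39 with HTSeq 0.6.1, HISAT2 2.0.1 and cutadapt 1.9.1. They give no settings, and whether counting used strand is unknown here, which leaves reads of overlapping antisense genes mixed. Every deposited FPKM matched the count divided by gene length and library total (tolerance 0.005 units or 0.1%). The table's older Atp5 symbols are kept.

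The gene test was the quasi-likelihood test of edgeR 4.0.16 in R 4.3.3 on the counts with TMM factors, for 13324 genes at or above 1 FPKM in at least 5 libraries, with Benjamini-Hochberg adjustment over all of them and calls under 0.05. SE is the log2 fold change over the square root of F. Paralogue ratios are log2 of FPKM ratios. The test was tried on simulated counts. Alternatives were library totals, DESeq2 1.42.0 and its size factors, limma 3.58.1, other filters and thresholds, a replicate block and leaving out each library. Samples of 1 group differed by more than counting error (8.99 to 109 as chi-square over degrees of freedom), so no library was counted as a repeat deposit of another; this does not show that they came from separate mice.

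The members, lists and tests were chosen with earlier results of these data known. Genes named were all mitochondrial genes, core and catalytic subunits, the 3 largest called changes per complex, paralogues, Atpif1, assembly factors of largest change, up to 3 called genes per list and direction, and all regulators; others were named after their values were seen. Values of 1 named-rule gene are not reported here. Copies were sought among GENCODE M21 transcripts by blastn. Intervals and p-values do not cover differences in surgery.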

Additional observations from a re-analysis of the deposited data

Results flagged for a closer look

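In 110 sets of 5 libraries examined (member levels, paralogue ratios and library measures within a group), 7 had 1 library far from the other 4, where chance alone gives about 1 in 20. Mitochondrial ribosomal RNA took 2.31% of the counts in IRI replicate 1, against 0.214% to 0.450% in the other IRI libraries. mt-Atp6 was at 81.4 FPKM in sham replicate 5, above 40.3 to 47.7 FPKM in the other sham libraries. mt-Nd4l was at 2.04 FPKM in sham replicate 4, below 5.88 to 6.34 FPKM in the others. mt-Atp8 was at 7.28 FPKM in IRI replicate 5, below 10.2 to 11.1 FPKM in the others. mt-Nd6 was at 6450 FPKM in IRI replicate 2, above 5061 to 5386 FPKM in the others. Atp5e was at 106 FPKM in IRI replicate 2, above 70.6 to 80.0 FPKM in the others. The log2 ratio of Atp5g1 to Atp5g3 was -4.77 in IRI replicate 1, above -4.98 to -4.93 in the others. The 7 flagged of 110 lie close to the 1 in 20 that chance alone gives, so no concentration in any kind of gene is read from them. mt-Nd4l had only 8 to 45 counts per library.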

How the results depend on the processing

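The check for changes of sign covered 110 tested genes from the list of genes to be named, described above, and the paralogue ratios. That list holds genes outside the naming rule of the members and leaves out many accessory subunits. No called value among them changed sign in an alternative. Other genes printed were not checked this way. The count of nuclear subunits called lower was 77 to 79 in the fits that left out 1 library each, and 77 of 82 were called lower in the full data and in every one of those fits. With library totals, 1 nuclear subunit was higher, the complex IV subunit Cox6b2, and 1 mitochondrial gene was lower. With limma on log2(FPKM + 1) or log2(FPKM + 0.1), 2 nuclear subunits, both of complex IV, were higher and 2 mitochondrial genes were lower, and 25 pathway genes were higher. At an adjusted p under 0.01, 10 pathway genes were higher. With a filter of 5 FPKM, 3042 genes were higher and 2838 lower, with fewer genes tested. For the other changes with setting the cause was not tested.

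The log2 ratio of Cox4i2 to Cox4i1 was 0.89 to 1.28 when 1 library was left out, Cox7a1 to Cox7a2 -0.95 to -0.50 and Atp5g1 to Atp5g3 -0.27 to -0.12. The labels share replicate numbers between groups, but nothing says that a number marks a pair, and deviations of same-numbered libraries correlated at -0.25 to 0.06, with 0 of 10 libraries closest to their own number. With the replicate block, 4215 genes were higher and 4104 lower, 78 nuclear subunits were lower and 6 mitochondrial genes were lower. A sign-flip test on the same pairing gave 1.12 for Cox4i2 to Cox4i1, -1.70 for Cox6a2 to Cox6a1, 1.38 for Cox6b2 to Cox6b1 and 0.58 for Cox7a2l to Cox7a2, each at an exact adjusted p of 0.125, where 5 pairs cannot give a raw p under 0.0625.

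Depth limits the low members: Cox4i2, Cox6a2, Atp5g2 and Ndufa4l2 lay under 5 FPKM in every library, and the 3 nuclear subunits under the filter were not detectable in most libraries.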
